A study of Mus musculus with 9 samples.

Results

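The transcripts of 10 T cell and natural killer (NK) cell genes were followed across 9 liver RNA libraries. The genes were chosen by name, with earlier results of these data known. They are Cd3d, Cd3e, Cd3g, Cd4, Cd8a, Cd8b1, Il7r, Nkg7, Gzma and Gzmb. All 10 were found among the 16521 genes of the deposited data. The libraries came from C57BL/6 mice in 3 groups of 3. The SAR group received the methionine-choline-deficient (MCD) diet and a high dose of sarsasapogenin (SAR), a plant steroid sapogenin in an amount not given in the labels. The model group received the MCD diet, which is used in rodents to induce fatty liver with inflammation. The normal group was given saline, and its diet is not stated. No label says whether the model group received saline, and none says that each sample is another mouse. The p-values therefore measure the spread between samples only, and that spread may be technical.

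T cells recognise antigen through a receptor whose signal is carried into the cell by the CD3 chains, and the coreceptors CD4 and CD8 bind the molecules that present the antigen. NK cells lack this receptor and share with CD8 T cells the cytotoxic granules that hold granzymes. Both kinds of lymphocyte reside in healthy liver, where NK cells are abundant in the sinusoids, and both enter inflamed liver.

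The deposited data hold group means, from which the reads of each library were recovered exactly for all 10 genes. Within a group, libraries a, b and c are lettered by falling size factor, which need not follow the replicate numbers. Values are normalised reads, that is, reads divided by a size factor, on a scale common to the 9 libraries. These transcripts were scarce: a library held 0 to 262 reads of any of them. Reads recovered per library ranged from 5199539 to 5596045 in the SAR group, from 12503819 to 14939063 in the model group and from 5807046 to 6673573 in the normal group, without the most abundant genes of the SAR and normal groups. All 10 hepatocyte markers examined were abundant, with means in the authors' deposited tables of at least 11273 in SAR liver, 4853 in model liver and 13496 in normal liver. Library c lay farthest from the others in both the normal and the model group. Over 12188 genes, the median distance of normal library c from the other normal libraries was 0.30 (log2), against 0.19 between those 2. For model library c it was 0.34, against 0.21 between model libraries a and b.

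Summed over the 10 genes, the SAR libraries held 362, 184 and 398 normalised reads, the model libraries 839, 688 and 659, and the normal libraries 133, 129 and 130. The sum was thus highest in the model libraries, and SAR library b was the lowest of its group. In bulk liver RNA, fewer T or NK cells and less of these RNAs per cell cannot be told apart.

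**Figure D1:**
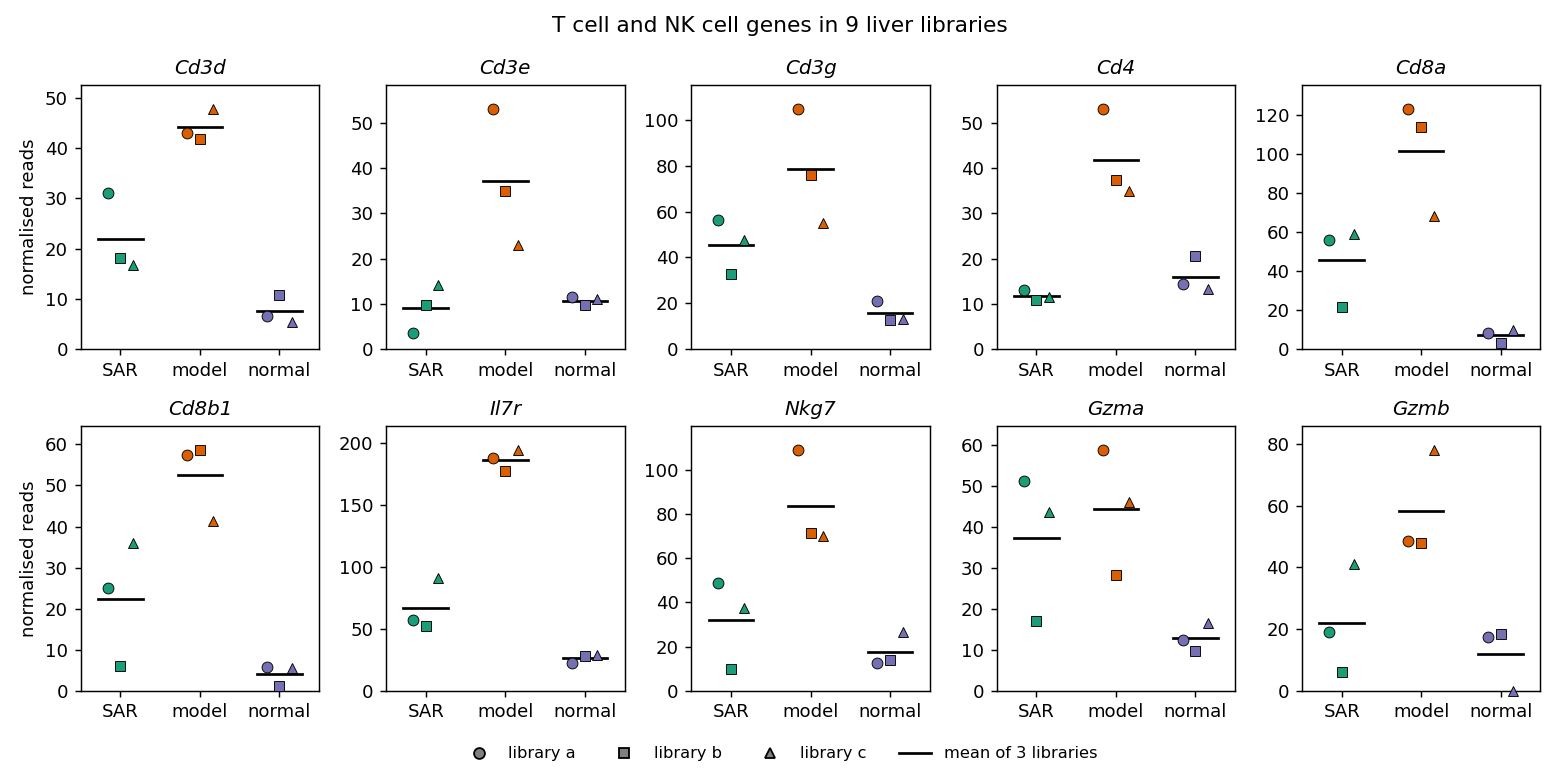
Normalised reads (vertical axes, from 0, each with its own range) of the 10 genes in the SAR, model and normal libraries, where circles, squares and triangles are libraries a, b and c of a group and bars are means of 3. For every gene the 3 model libraries lie above the 3 normal libraries, and SAR library b is the lowest SAR library for 8 of the 10 genes.

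Cd3d (ENSMUSG00000032094), Cd3e (ENSMUSG00000032093) and Cd3g (ENSMUSG00000002033) encode the delta, epsilon and gamma chains of CD3 and stand side by side on chromosome 9. All 3 rose in model liver. Cd3d stood at 31.1, 18.2 and 16.7 normalised reads in SAR libraries a, b and c, at 43.0, 41.8 and 47.8 in the model libraries and at 6.73, 10.8 and 5.52 in the normal libraries. The 3 groups did not overlap. Its log2 fold change was 2.44 in model against normal liver (SE 0.40, limma Benjamini-Hochberg adjusted p = 0.00452) and -1.01 in SAR against model liver (SE 0.35, limma adjusted p = 0.0580), which missed the threshold of 0.05. Cd3g stood at 56.1, 32.7 and 47.5 in the SAR libraries, at 105, 76.1 and 55.0 in the model libraries and at 21.1, 13.0 and 13.2 in the normal libraries. SAR library a lay just above model library c, so these groups overlapped. The log2 fold change of Cd3g was 2.24 in model against normal liver (SE 0.37, limma adjusted p = 0.00437) and -0.75 in SAR against model liver (SE 0.33, limma adjusted p = 0.112).

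Cd3e was the CD3 gene whose fall in SAR against model liver passed the threshold, while the estimates of Cd3d and Cd3g were negative too. It stood at 3.58, 9.69 and 14.1 normalised reads in the SAR libraries, at 53.0, 35.0 and 23.1 in the model libraries and at 11.5, 9.73 and 11 in the normal libraries. The SAR libraries lay below every model library and on both sides of the normal ones. Its log2 fold change was 1.63 in model against normal liver (SE 0.43, limma adjusted p = 0.0208) and -1.98 in SAR against model liver (SE 0.57, limma adjusted p = 0.0311). Both calls rested on few reads: 3, 8 and 11 in the SAR libraries, 74, 46 and 29 in the model libraries and 12, 9 and 10 in the normal libraries. The call in model against normal liver was lost without model library a or b or normal library a or b, at adjusted p from 0.0530 to 0.0927, and with limma voom (0.0520). The call in SAR against model liver was lost without SAR library a or b or model library a or b, at adjusted p from 0.0581 to 0.137, and with limma voom (0.0579). Reads of Cd3d per read of Cd3e were 8.67, 1.88 and 1.18 in the SAR libraries, 0.811, 1.2 and 2.07 in the model libraries and 0.583, 1.11 and 0.50 in the normal libraries. The 8.67 was 26 reads over 3, and a change in this proportion was not tested.

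Cd4 (ENSMUSG00000023274) encodes the coreceptor of helper T cells, and in mouse it is also expressed by some dendritic cells. It stood at 13.1, 10.9 and 11.6 normalised reads in the SAR libraries, at 53.0, 37.3 and 35.0 in the model libraries and at 14.4, 20.5 and 13.2 in the normal libraries. The model libraries lay above all others, and the SAR libraries lay below the normal ones by a margin as narrow as 13.1 against 13.2. Its log2 fold change was 1.34 in model against normal liver (SE 0.36, limma adjusted p = 0.0228), the smallest of the 10 genes. It fell by 1.70 in SAR against model liver on the log2 scale (SE 0.37, limma adjusted p = 0.0116). The first call was lost without model library a or b or normal library a, at adjusted p from 0.0700 to 0.0969, and the second without model library a or b, at 0.0690 and 0.0520.

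Cd8a (ENSMUSG00000053977) and Cd8b1 (ENSMUSG00000053044) encode the alpha and beta chains of the CD8 coreceptor and are neighbours on chromosome 6. They had the largest calls in model liver. Cd8a stood at 56.1, 21.8 and 59.1 normalised reads in the SAR libraries, at 123, 114 and 68.5 in the model libraries and at 8.65, 3.24 and 9.94 in the normal libraries. Cd8b1 stood at 25.1, 6.06 and 36.0 in the SAR libraries, at 57.3, 58.6 and 41.4 in the model libraries and at 5.77, 1.08 and 5.52 in the normal libraries. For both chains the 3 groups did not overlap, and SAR library b held the lowest SAR value. Cd8a was 13.3-fold higher in model than in normal liver (95% interval 6.17 to 28.5), or 3.73 on the log2 scale (SE 0.48, limma adjusted p = 0.00207), and Cd8b1 was 12-fold higher (4.68 to 30.9), or 3.59 (SE 0.59, limma adjusted p = 0.00437). Among the 12468 genes tested Cd8a took place 152 and Cd8b1 place 187 from the highest log2 fold change. Both had normal means below 10 and reached the minimum mean through the model group, so these places are no independent support. In SAR against model liver neither passed, where Cd8a stood at -1.21 (SE 0.41, limma adjusted p = 0.0547) and Cd8b1 at -1.47 on the log2 scale (SE 0.58, limma adjusted p = 0.0864).

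The 2 coreceptors differed in proportion. Per read of Cd4 there were 4.27, 2.0 and 5.11 reads of Cd8a in the SAR libraries, 2.32, 3.06 and 1.95 in the model libraries and 0.60, 0.158 and 0.75 in the normal libraries. Every SAR and model library thus lay above every normal library, and no size factor enters this ratio. The normal ratios rested on few reads, 9, 3 and 9 of Cd8a over 15, 19 and 12 of Cd4. Its mean was 2.45 ± 0.563 in model against 0.503 ± 0.308 in normal liver (SD, n = 3 each, two-sided exact permutation p = 0.1, the smallest that 3 against 3 allows, 0.188 adjusted over 15 ratio tests). In SAR liver the mean was 3.79 ± 1.61, against 2.45 ± 0.563 in model liver (exact permutation p = 0.3, adjusted 0.45). The proportion of the 2 CD8 chains overlapped between the groups. Reads of Cd8b1 per read of Cd8a were 0.444 ± 0.165 in SAR liver, 0.528 ± 0.0709 in model liver and 0.519 ± 0.170 in normal liver (SD, n = 3 each). The exact permutation p was 0.5 for SAR against model liver and 0.6 for SAR against normal liver. The normal ratios were 6, 1 and 5 reads over 9, 3 and 9, too few to show that the proportion stayed the same.

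Il7r (ENSMUSG00000003882) encodes the alpha chain of the interleukin 7 receptor, which naive and memory T cells need to survive, and it is also borne by innate lymphoid cells. Of the 10 genes it had the smallest standard error in both comparisons with model liver. Its values were 57.3, 52.1 and 91.2 normalised reads in the SAR libraries, 188, 177 and 194 in the model libraries and 22.1, 28.1 and 28.7 in the normal libraries. The 3 groups did not overlap, and the SAR libraries lay between the other groups. Il7r was 6.95-fold higher in model than in normal liver (95% interval 4.90 to 9.84), or 2.80 on the log2 scale (SE 0.22, limma adjusted p = 6.20e-04). It fell by 1.49 on the log2 scale in SAR against model liver (SE 0.24, limma adjusted p = 0.00368). Both calls were kept under every alternative run, with log2 fold changes from 2.64 to 2.89 and from -1.74 to -1.34.

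Nkg7 (ENSMUSG00000004612) encodes a granule membrane protein of NK and cytotoxic T cells, and Gzma (ENSMUSG00000023132) and Gzmb (ENSMUSG00000015437) encode granzymes A and B, serine proteases that enter the target cell. Their promoters are shown because all 3 of these granule genes hold the core RUNX motif in the 250 bases before the start, and none of the 5 other genes with a promoter in the table does. The motif TGTGGT was searched on both strands, as were AP-1 (TGANTCA), ETS (AGGAAG) and T-box (TCACAC). Capitals mark matches to RUNX, which reads ACCACA on the other strand, and to AP-1, and these did not overlap each other. Sequences are from RefSeq, build GRCm38.p6, 5′ to 3′ on the strand of the gene: chr7:43436888-43437137 (plus strand) for Nkg7, chr13:113100982-113101231 (minus strand) for Gzma and chr14:56262335-56262584 (minus strand) for Gzmb.
Nkg7: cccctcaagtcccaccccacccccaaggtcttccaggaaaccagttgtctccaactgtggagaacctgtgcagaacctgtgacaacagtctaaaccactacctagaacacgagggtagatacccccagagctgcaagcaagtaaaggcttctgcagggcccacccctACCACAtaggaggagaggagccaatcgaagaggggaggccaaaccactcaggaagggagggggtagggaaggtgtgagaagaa
Gzma: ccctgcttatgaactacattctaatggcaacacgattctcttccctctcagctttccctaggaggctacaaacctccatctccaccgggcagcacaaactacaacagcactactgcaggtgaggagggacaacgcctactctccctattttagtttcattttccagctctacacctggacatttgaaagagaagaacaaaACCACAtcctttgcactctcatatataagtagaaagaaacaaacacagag
Gzmb: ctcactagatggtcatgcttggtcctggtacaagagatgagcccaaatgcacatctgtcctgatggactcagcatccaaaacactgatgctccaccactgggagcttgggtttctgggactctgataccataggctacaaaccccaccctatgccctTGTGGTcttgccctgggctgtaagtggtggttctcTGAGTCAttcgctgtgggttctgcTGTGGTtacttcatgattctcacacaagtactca
Nkg7 and Gzma held 1 RUNX match each, and Gzmb held 2 and the AP-1 match. Over the 8 members with a promoter in the table, ETS was found in 4 and T-box in 3. Of 32851 promoters of the same length 14% held the RUNX letters, 6.75% AP-1, 29.5% ETS and 12.3% T-box. A match describes letters and not a bound site, and the lack of one says nothing of the factor.

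Nkg7 and Gzma rose in model liver, and none of the 3 granule genes passed the threshold in SAR against model liver. Nkg7 stood at 49.0, 9.69 and 37.2 normalised reads in the SAR libraries, at 109, 71.5 and 70.1 in the model libraries and at 12.5, 14 and 26.5 in the normal libraries. SAR library b lay below all normal libraries, and the other two above them. The log2 fold change of Nkg7 was 2.23 in model against normal liver (SE 0.38, limma adjusted p = 0.00488) and -1.59 in SAR against model liver (SE 0.54, limma adjusted p = 0.0537). Gzma stood at 51.4, 17.0 and 43.7 in the SAR libraries, at 58.8, 28.2 and 46.2 in the model libraries and at 12.5, 9.73 and 16.6 in the normal libraries. The SAR and model libraries overlapped, and both groups lay above the normal one. Gzma was higher by 1.68 on the log2 scale in model against normal liver (SE 0.42, limma adjusted p = 0.0171), which was lost without model library a or normal library a at adjusted p = 0.0782 and 0.0522. In SAR against model liver it was -0.31 (95% interval -1.36 to 0.75, limma adjusted p = 0.640), and without SAR library b it was 0.17. Gzma overlaps the gene Cdc20b on chromosome 13 and no strand setting is stated, so reads of the 2 genes cannot be told apart where they overlap.

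Gzmb was the member whose value depended most on 1 library. It stood at 19.1, 6.06 and 41.1 normalised reads in the SAR libraries, at 48.7, 47.9 and 78.1 in the model libraries and at 17.3, 18.4 and 0 in the normal libraries. The 0 reads of normal library c allow up to 3 reads, or 3.31 normalised reads, for counting error only. All model libraries lay above all others, yet the log2 fold change of 3.08 in model against normal liver had a wide error (SE 1.12, limma adjusted p = 0.0606). Without normal library c it was 1.63 (limma adjusted p = 0.0119), and in the authors' deposited table it was 2.30 (adjusted p = 3.77e-04). In SAR against model liver it was -1.66 (SE 0.60, limma adjusted p = 0.0656), and without SAR library c it was -2.27 (limma adjusted p = 0.0268).

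Model against normal liver asks which transcripts differ between the group on the MCD diet and a group given saline, whose diet is not stated. Of the 10 genes 9 rose, none fell and Gzmb did not pass, against 20.2% of all genes called higher. Because the genes were chosen with earlier results of these data known, this and the later counts of them are no independent support. The median log2 fold change of the 10 was 2.34, and that of all genes tested was 0.03. The model and normal libraries did not overlap for 10 of the 10 genes, against 27.5% of all genes with every model library higher. The mean over the 6 libraries reached the minimum of 10 for every member, but Cd3d, Cd8a and Cd8b1 reached it through the model group and had normal means below 10. By the adjusted p of the authors' deposited table, 9 of the 10 were higher, against 13.2% of all genes, and there Cd4 was the gene that missed the threshold (adjusted p = 0.0507). Without normal and model library c, an alternative chosen after the values were seen, all 10 were called higher. Over all genes 3778 of 12552 were called higher there. Leaving out 1 library at a time called between 6 and 10 of the 10 genes. The higher calls over all genes then ran from 1258 of 12321 to 2854 of 12470.

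SAR against model liver asks which of these transcripts differ with the compound on the same diet, where saline for the model group is not stated. Of the 10 genes 3 fell, Cd3e, Cd4 and Il7r, and 7 did not pass, against 16.3% of all genes called lower. Cd3e reached the minimum mean of 10 through the model group and had a SAR mean below 10. At an unadjusted p under 0.05 there were 9, Gzma being the exception, against 22.7% of all genes lower at that level. The median log2 fold change of the 10 was -1.48, and that of all genes tested was 0.01. The SAR libraries lay wholly below the model libraries for 8 of the 10 genes, against 23.4% of all genes, and Cd3g and Gzma overlapped. By the adjusted p of the authors' deposited table, 5 were lower, against 9.76% of all genes: Il7r (adjusted p = 2.10e-04), Cd4 (0.0151), Cd3e (0.0154), Nkg7 (0.0225) and Cd8a (0.0464). The count depended on single libraries. It was 6 without model library c, 4 without SAR library a or SAR library c, 2 without SAR library b and 1 without model library a or b. Over all genes 2609 of 12386 were called lower without model library c, 934 of 12226 without a and 918 of 12269 without b. Without SAR library a they were 1917 of 12434, without b 1148 of 12486 and without c 1431 of 12469. Both comparisons share the model libraries, so their fold changes are not independent.

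**Figure D2:**
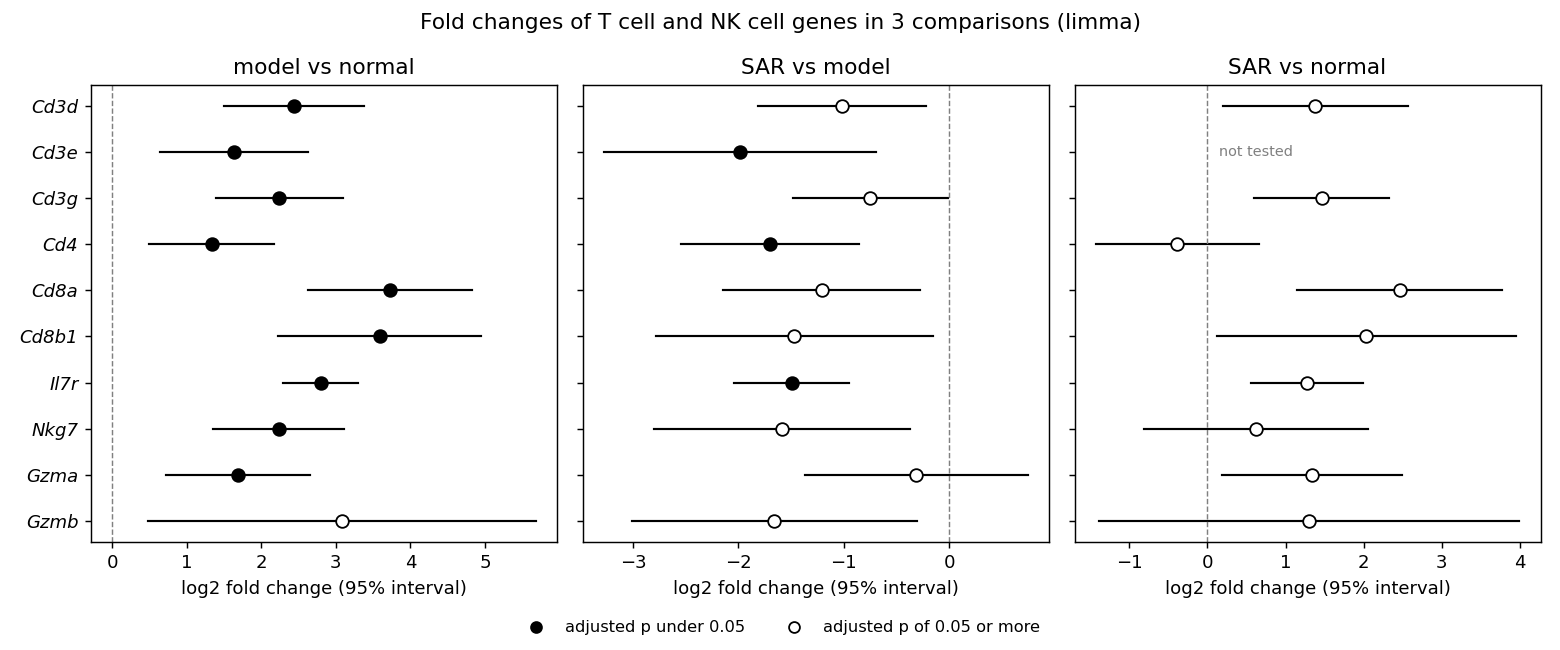
Log2 fold changes (horizontal axes, on the log2(value + 1) scale) of the 10 genes in model against normal, SAR against model and SAR against normal liver, with 95% intervals from limma and filled points where the adjusted p is under 0.05. Filled points number 9, 3 and 0 in the 3 panels, Il7r has the shortest interval in the left panel, and Gzmb has the longest there.

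SAR against normal liver asks what remained different from normal under both diet and compound. None of the 9 genes tested passed limma's test with Benjamini-Hochberg adjustment, against 3.52% of all genes, and 6 of them were higher at an unadjusted p under 0.05, against 12.6% of all genes. Cd3e had too low a mean to be tested, and Cd3d, Cd8a and Cd8b1 reached the minimum through the SAR group and had normal means below 10. The largest log2 fold changes were those of Cd8a (2.46, SE 0.58, limma adjusted p = 0.0555) and Cd8b1 (2.03, SE 0.84, limma adjusted p = 0.170). Cd3g, at 1.46 (limma adjusted p = 0.0687), Cd3d, at 1.38 (0.142), Gzma, at 1.34 (0.141), and Il7r, at 1.27 (0.0637), followed. For these 6 genes every SAR library lay above every normal library, against 15.8% of all genes. Gzmb, at 1.30 (limma adjusted p = 0.509), and Nkg7, at 0.62 (0.558), overlapped between the groups. Cd4 stood on the other side of 0, at -0.38 (SE 0.46, limma adjusted p = 0.626). A fit of all 9 libraries together called Cd3g, Cd8a and Il7r higher, and the fit without normal library c called Cd8a and Il7r.

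Compared per kilobase of exon, Nkg7 and Gzma had the highest means of the 10 in all 3 groups. Exon length was that of all GENCODE exons of a gene joined, and the annotation used for the reads is not stated. The effect of this choice on the order of the genes was not tested. In SAR liver Gzma stood first at 37.1 ± 17.9 normalised reads per kilobase, followed by Nkg7 at 35.0 ± 22.1. In model liver Nkg7 stood first at 91.4 ± 24.1, above Gzma at 44.1 ± 15.3, and in normal liver Nkg7 stood at 19.3 ± 8.40 and Gzma at 12.9 ± 3.42 (SD, n = 3 each). Gzmb followed at 15.4 ± 12.3 in SAR, 40.6 ± 11.95 in model and 8.28 ± 7.18 in normal liver, where its lead over the next gene was smaller than its own SD in each group. Cd3e was last in SAR and model liver at 2.24 ± 1.30 and 9.08 ± 3.69 per kilobase, and Cd8a was last in normal liver at 2.0 ± 0.977. Most neighbours in these orders did not differ beyond their spread: the gap exceeded the larger SD for 1 of 9 neighbouring pairs in SAR liver, 2 of 9 in model liver and 0 of 9 in normal liver. The gaps in model liver were those below Nkg7 and between Cd3g and Cd4, and the 1 in SAR liver lay between Cd3d and Cd4.

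Of the other genes of the T cell receptor pathway and of T cell identity, 16 of 22 tested rose in model against normal liver and 9 of 22 fell in SAR against model liver. The list held 25 genes. Over all genes, 20.2% were called higher in model against normal liver and 16.3% lower in SAR against model liver. In SAR against normal liver 3.52% were called in either direction. The counts of this and the further lists are to be read beside these shares. In model against normal liver none fell and 6 did not pass, with a median log2 fold change of 1.92. Cd5, an inhibitory receptor of T cells, stood at 35.0 ± 3.50 in model against 1.92 ± 0.615 normalised reads in normal liver (log2 3.64, SE 0.53, limma adjusted p = 0.00312), Cd2, an adhesion receptor, rose by 3.03 (0.00595), and Lat, the adaptor of the receptor, by 2.52 (0.00367). Cd5, Cd2 and Lat had normal means below 10 and reached the minimum mean through the model group. In SAR against model liver 13 did not pass and none rose, with a median of -1.14. Those that fell included Cd6, a T cell surface receptor gene (log2 -2.03, limma adjusted p = 0.0116), the costimulatory receptor gene Cd28 (-1.72, 0.0421) and Cd5 (-1.59, 0.0202). Cd6 and Cd28 had SAR means below 10 and reached the minimum through the model group. None of 14 passed in SAR against normal liver.

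Among 28 further NK cell and cytotoxic lymphocyte genes, 18 were tested in model against normal liver, where 11 rose and 7 did not pass, with a median log2 fold change of 1.96. Gzmk, which encodes granzyme K, stood at 39.6 ± 7.54 in model against 2.5 ± 4.32 normalised reads in normal liver (log2 4.30, SE 0.92, limma adjusted p = 0.0105). Ccl5, a chemokine that cytotoxic lymphocytes secrete, stood at 309 ± 34.7 against 35.7 ± 19.1 (log2 3.24, SE 0.41, limma adjusted p = 0.00210). Gzmk had a normal mean below 10 and reached the minimum mean through the model group. In SAR against model liver 7 of 18 fell and 11 did not pass, with a median of -1.40. Those that fell included Cd244a, an NK cell receptor (log2 -2.24, limma adjusted p = 0.0280), Runx3, a transcription factor of CD8 T and NK cells (-2.20, 0.00637), Tyrobp, a signalling adaptor that macrophages share (-1.70, 0.00185), and Klrc1, an NK cell receptor (-1.62, 0.0493). Cd244a and Klrc1 had SAR means below 10 and reached the minimum through the model group. Ccl5 was the 1 gene of 7 that stayed higher in SAR than in normal liver (152.6 ± 58.3 against 28.0 ± 14.9, log2 2.47, SE 0.48, limma adjusted p = 0.0374).

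Of 18 helper, regulatory and checkpoint genes in the tables, 10 had too low a mean for model against normal liver and 8 were tested. The 3 that rose were the inhibitory receptor genes Pdcd1 (log2 2.95, limma adjusted p = 0.0131), Tigit (2.79, 0.0178) and Havcr2 (2.37, 0.00964). Pdcd1 and Tigit had normal means below 10 and reached the minimum mean through the model group. Havcr2, which is also borne by macrophages and dendritic cells, was the 1 gene of 9 that fell in SAR against model liver (log2 -2.02, limma adjusted p = 0.0199). That count is not above the 16.3% of all genes called lower. Of 21 lymphocyte growth, homing and residency genes tested in model against normal liver 14 rose and 2 fell, and of 20 in SAR against model liver 15 fell and 1 rose. The largest rises were those of the chemokine receptor genes Cx3cr1 (log2 4.21, limma adjusted p = 7.59e-04), Ccr7 (3.65, 0.0020) and Ccr2 (3.23, 7.23e-04), of which Cx3cr1 and Ccr2 are also expressed by monocytes. Ccr7 had a normal mean below 10 and reached the minimum through the model group. Cxcl9, a chemokine that attracts T cells, was the 1 gene of 18 higher in SAR than in normal liver (356 ± 129 against 87.8 ± 36.5 normalised reads, log2 2.03, SE 0.37, limma adjusted p = 0.0339). That count lies near the 3.52% of all genes called in either direction.

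Markers of all leukocytes moved with the T and NK cell genes. The 10 pan-leukocyte markers, such as Ptprc, Coro1a and Itgb2, are expressed by T and NK cells as well as by myeloid cells. They summed to 3150, 2639 and 3707 normalised reads in the SAR libraries, to 7550, 6974 and 7356 in the model libraries and to 2482, 2292 and 3752 in the normal libraries. The model libraries lay above all others, whereas SAR and normal libraries overlapped. Of these 10 markers 9 rose in model against normal liver, 10 fell in SAR against model liver and none passed in SAR against normal liver.

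Set against these markers within a library, the T and NK cell genes overlapped between SAR and model liver. Per 1000 pan-leukocyte reads there were 115, 69.8 and 107 reads of the 10 genes in the SAR libraries, 111, 98.6 and 89.6 in the model libraries and 53.4, 56.1 and 34.7 in the normal libraries. Every library of both groups lay above the normal libraries. Cd8a alone came to 14 ± 5.06 per 1000 in SAR liver, 14 ± 4.06 in model liver and 2.52 ± 1.04 in normal liver. Cd4 came to 3.81 ± 0.598 in SAR liver, 5.71 ± 1.17 in model liver and 6.10 ± 2.72 in normal liver (SD, n = 3 each, exact permutation p = 0.1 for SAR against model liver and 0.8 for model against normal liver). Il7r came to 20.8 ± 3.34 in SAR liver, 25.6 ± 0.785 in model liver and 9.61 ± 2.38 in normal liver (exact permutation p = 0.1 for SAR against model and for model against normal liver, 0.188 adjusted over the 15 ratio tests). The part of total leukocyte RNA in the fold changes of the 10 genes was not tested.

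**Figure D3:**
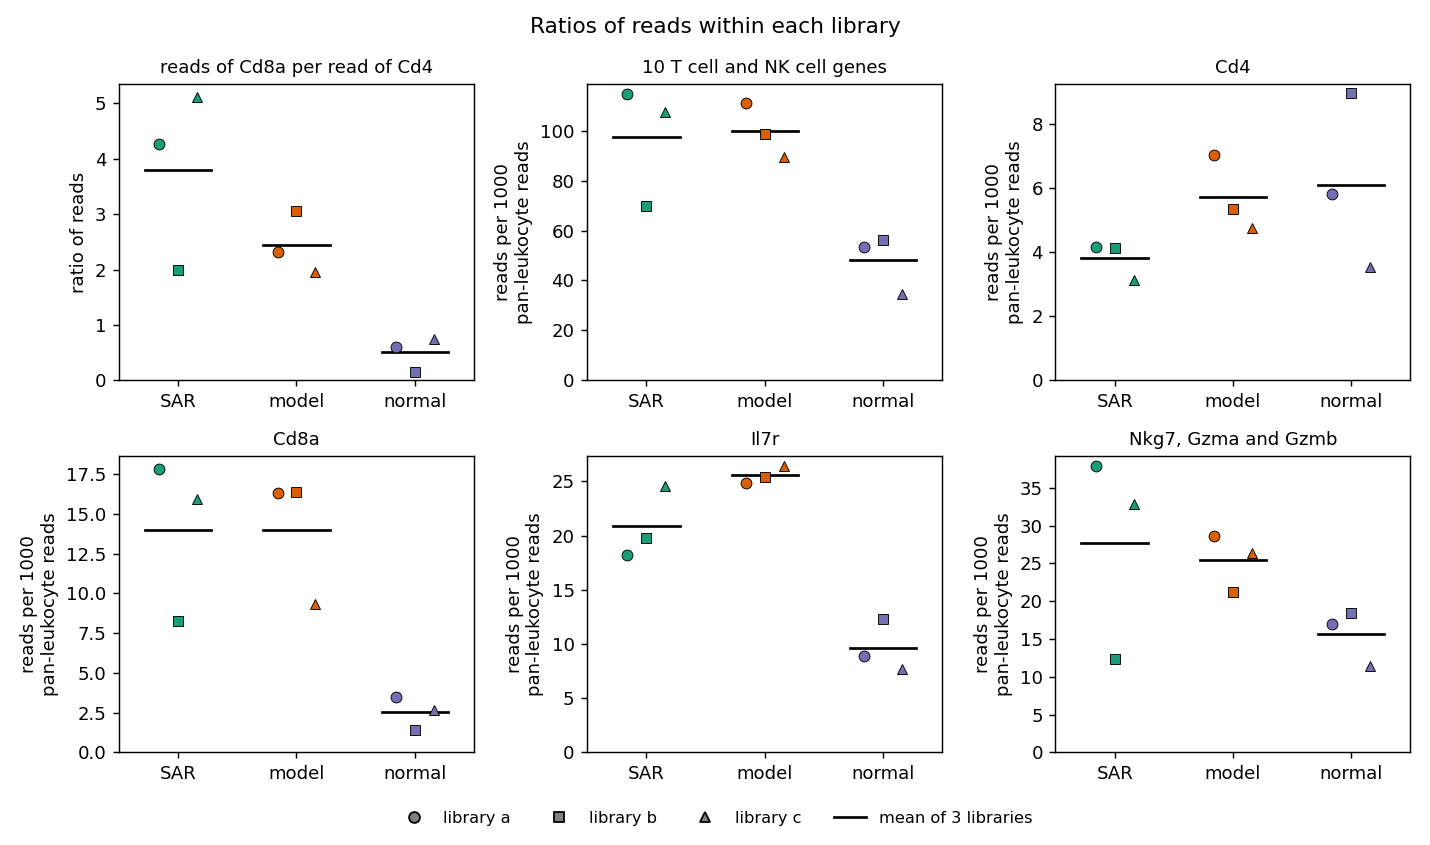
Ratios of reads within each library (vertical axes, from 0) in the SAR, model and normal groups: reads of Cd8a per read of Cd4 in the first panel, and reads of the named genes per 1000 reads of 10 pan-leukocyte markers in the others. Circles, squares and triangles are libraries a, b and c, and bars are means of 3; the 10 genes together overlap between SAR and model libraries and lie above the normal libraries.

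Markers of other cells that the tissue holds also moved. Kupffer cell and macrophage markers, 16 genes, summed to 8438, 7346 and 11066 normalised reads in the SAR libraries, to 23894, 21669 and 24434 in the model libraries and to 8463, 8634 and 12845 in the normal libraries. In model against normal liver 9 of these rose and 4 fell, and in SAR against model liver 10 of 16 fell. In SAR against normal liver 5 were higher and 4 lower, against 3.52% of all genes called in either direction. The overlap of the SAR and normal sums thus does not mean that the single markers were at normal levels. Dendritic cell markers, 10 genes, summed to 534 to 702 in SAR liver, 1207 to 1499 in model liver and 445 to 568 in normal liver, with 7 higher in model than in normal liver and 4 lower in SAR than in model liver. B and plasma cell markers, 11 genes, summed to 307 to 613 in SAR liver, 875 to 1681 in model liver and 184 to 797 in normal liver, and Jchain was the 1 of 7 tested that passed in either comparison. Of the 28 further NK cell and cytotoxic genes, 1 to 6 had 0 reads in a SAR library, 1 to 3 in a model library and 6 to 8 in a normal library.

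Neutrophil markers set normal library c apart. The 12 genes summed to 330, 236 and 606 normalised reads in the SAR libraries, to 1266, 1704 and 2938 in the model libraries and to 109, 254 and 8280 in the normal libraries. Of 11 tested, 1 rose and 10 did not pass in model against normal liver, 8 fell and 3 did not pass in SAR against model liver (median log2 fold change -2.43), and none of 11 passed in SAR against normal liver. The sum of the 10 T and NK cell genes in normal library c was 130, against 133 and 129 in the other two. Cholangiocyte markers, 8 genes, ran from 764 to 1700 in SAR liver, from 1994 to 10934 in model liver and from 466 to 847 in normal liver, and model library c held the lowest model value. Stellate cell and fibroblast markers, 10 genes, ran from 4537 to 7594 in SAR liver, from 13034 to 23654 in model liver and from 1529 to 5612 in normal liver. Of the cholangiocyte markers 8 of 8 and of the stellate cell markers 7 of 10 were higher in model than in normal liver, and 5 and 8 were lower in SAR than in model liver. Of 9 sinusoidal endothelial markers 3 were lower in model than in normal liver and none was higher, and the 1 mast cell marker tested, Kit, did not pass. By the authors' deposited tables, 7 of 10 hepatocyte markers were lower in model than in normal liver and 8 of 10 were higher in SAR than in model liver. The part of these other cells in the fold changes of the 10 genes was not tested.

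**Figure D4:**
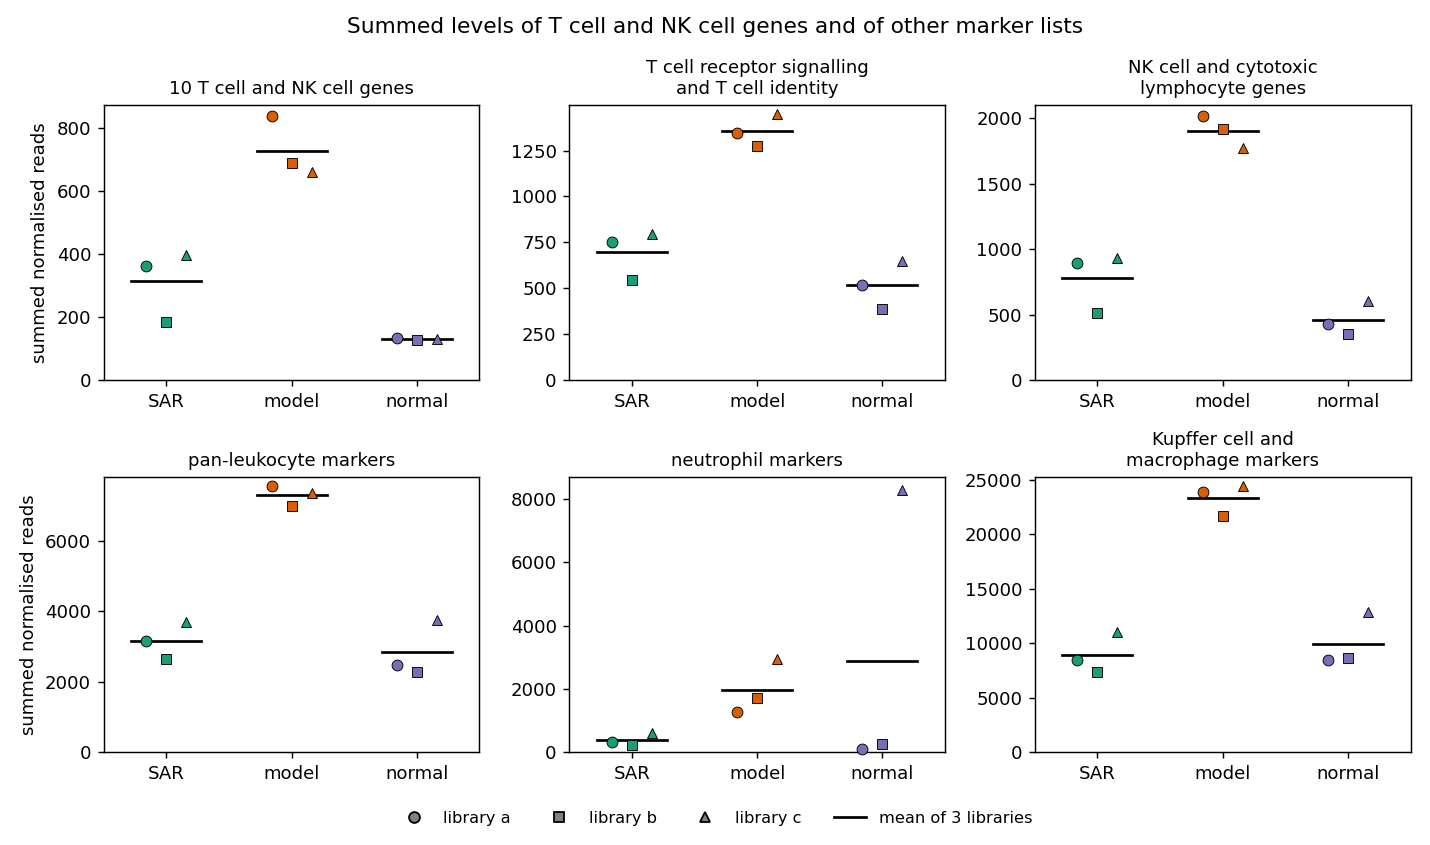
Summed normalised reads (vertical axes, from 0) of the 10 T cell and NK cell genes and of 5 other marker lists in the SAR, model and normal libraries, where circles, squares and triangles are libraries a, b and c and bars are means of 3. Pan-leukocyte and macrophage markers are highest in the model libraries, and neutrophil markers reach 8280 in normal library c, where the 10 genes stay at 130.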

How the data were processed

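Liver RNA of 9 samples was sequenced. Per the labels' protocols, Trizol was used for extraction and a NEBNext Ultra kit for the libraries. The genome build named in the submitters' processing notes is mm9. The sources used here do not give the aligner, the counter or the annotation.

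The authors deposited 2 tables of group means. Per the file headers, a signal value is a group's mean read count after DESeq size factor scaling, and the deposited ratio (fold) divides 2 such means and is also given as a log2 value. The p-values, raw and adjusted, come from the DESeq test that the authors ran.

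Each mean is a sum of 3 whole read numbers times a constant of each library. Reads were recovered by solving the means at 15 digits. Reads in all 9 libraries were obtained for 16322 of 16521 genes, and 199, hepatocyte markers among them, stayed unsolved in at least 1 group. Recovered reads made up 41.4% of the summed means in the normal, 100% in the model and 43.7% in the SAR group. Of 2000 means of each group moved by a tiny amount 0 could be solved, and the recovery was tested on simulated data. Recomputed size factors differed from the authors' by at most 0.741%. Of the gene IDs 16490 matched a symbol and 31 did not.

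The design had named limma for such values. Within a table the authors' size factors were used, and for SAR against normal liver, and for the 9 libraries together, medians of ratios were recomputed. Every gene whose value averaged at least 10 in the 6 libraries compared was tested on log2(value + 1) with limma 3.58.1 (R 4.3.3), trended variance, two-sided, with Benjamini-Hochberg adjustment over 12468 genes for model against normal, 12390 for SAR against model and 11503 for SAR against normal liver, and a threshold of 0.05. On this scale a fold change is a difference of mean logs, which for genes with few reads can be smaller or larger than the ratio of the group means. Where a gene outside the 10 is given for 2 groups, its mean ± SD is on the scale of that comparison, and where it is given for 3 groups, on the scale common to the 9 libraries. The fit was tested on simulated data with the same assumed spread for all genes. Of 100 genes given a log2 change of 1, it called 13 for model against normal, 13 for SAR against model and 6 for SAR against normal liver. At a log2 change of 2 it called 87, 90 and 87 of 100. A gene that did not pass is therefore not shown to be unchanged.

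The 10 genes and 14 further lists with 197 symbols, 3 of them not matched, were chosen with earlier results of these data known. Of each further list up to 4 genes with the largest called change could be named, or the most abundant where fewer than 2 passed. Ratio tests were exact permutation tests. Promoters and gene positions are from RefSeq and GENCODE on GRCm38.p6, another build than that of the reads, and 8 of the 10 genes had a promoter in the table.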

Additional observations from a re-analysis of the deposited data

How the results depend on the processing

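Alternatives were another scaling (upper quartile), 1 fit of all 9 libraries, pseudocounts of 0.5 and 5, no minimum mean or one of 50, limma voom, a robust variance, the authors' test, and leaving out each library. No paired analysis was possible because the recovered libraries carry no replicate number. A minimum of 50 left 4 of the 10 genes to test, of which 4 were called in model against normal and 1 in SAR against model liver, and none to test in SAR against normal liver. In SAR against model liver the authors' test called 5. In SAR against normal liver 1 fit of 9 libraries called 3 and a robust variance 1. Leaving out 1 library gave 6 to 10 called members in model against normal, 1 to 6 in SAR against model and 0 to 2 in SAR against normal liver, and 2421 to 5734, 1529 to 5085 and 6 to 1063 genes over all. The highest count in each followed from leaving out a library c. The direction reversed for Gzma in SAR against model liver without SAR library b (0.17, range -0.60 to 0.17 over the libraries left out) and for Gzmb in SAR against normal liver without normal library c (-0.050, range -0.050 to 2.0). Of 413 values of single members 373 kept direction and side of the threshold, 18 lost and 20 gained a call. List counts stayed within 1.5 times in 442 of 571 cases. Where a call changed, the cause was not tested. A library held at most 262 reads of a member, which limits the precision of every value.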

Other observations

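Some genes outside the lists lay close to the mean profile of the 3 CD3 genes. Over the 9 libraries, a gene's centred log2 values were compared with the mean of those of the 3 CD3 genes. The root mean square difference was smallest for Pitpnm1 (0.130), Nr4a3 (0.157), Marcksl1 (0.179), Prkcd (0.184) and Il10ra (0.196), of 12185 genes ranked. The 3 CD3 genes were not ranked themselves, and a single CD3 gene can lie away from their mean. Pitpnm1, a phosphatidylinositol transfer protein gene, stood at 135 ± 26.4 normalised reads in SAR liver, 335 ± 72.3 in model liver and 77.4 ± 3.22 in normal liver (SD, n = 3 each). Il10ra, which encodes the interleukin 10 receptor of lymphocytes and macrophages, stood at 88.6 ± 5.73 in SAR liver, 287 ± 51.6 in model liver and 58.6 ± 6.28 in normal liver. Of the members, Il7r took place 247 in this ranking and Cd4 place 834, whereas Cd8a took place 5409, Cd8b1 place 6138 and Gzmb place 10599. The 9 libraries share 3 groups, so that any gene with the same group means ranks high, and no test was run.

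SAR library b held the lowest SAR value of 8 of the 10 genes. It had 21.8 normalised reads of Cd8a, 9.69 of Nkg7, 17.0 of Gzma and 6.06 of Gzmb, against 56.1 and 59.1, 49.0 and 37.2, 51.4 and 43.7, and 19.1 and 41.1 in SAR libraries a and c. Its pan-leukocyte sum, 2639, was also the lowest of the group, but per 1000 of those reads it held 12.4 reads of Nkg7, Gzma and Gzmb against 37.9 and 32.9. This library was singled out after its values were seen.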
